A study of Mus musculus with 6 samples.

Results

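The peroxisome genes described here are genes that the deposited expression table assigns to the KEGG peroxisome pathway. The account covers 33 of these among the 4864 genes analysed. RNA-seq was performed on adipocytes differentiated from adipose-derived stem cells (ADSC) of mouse subcutaneous adipose tissue, with 3 vehicle libraries and 3 NJT-2 libraries. All cultures were wild type, the labels give a cell line (ADSC) and a cell type (mesenchymal stem cell), and the study's methods name male C57BL/6J mice as the source of its ADSC. The labels do not say whether the replicates came from separate cultures or animals, so the p-values measure the spread between these libraries, which may be technical. NJT-2 is a compound that the study selected as a ligand of PPARγ, the nuclear receptor that drives adipocyte differentiation, and the comparison asks how gene expression in the differentiating cells differs with it.

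Peroxisomes are small organelles bounded by a single membrane. They shorten very long and branched fatty acids by β-oxidation, in which an acyl-CoA oxidase passes electrons straight to oxygen and releases hydrogen peroxide. Peroxins, the products of the *Pex* genes, insert the membrane proteins and import the enzymes of the matrix from the cytosol, and peroxiredoxins and superoxide dismutases remove reactive oxygen species. Several genes of peroxisomal β-oxidation are textbook targets of the PPAR family, whose members bind DNA together with an RXR partner at a direct repeat of AGGTCA spaced by 1 base.

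Library totals over the genes in the table lay between 16093037 and 28929673 counts. Vehicle replicate 1 and NJT-2 replicate 2 stood apart from the others in their groups. On log2 CPM (counts scaled to the library total) over 3705 genes, vehicle replicates 2 and 3 lay at a distance of 39.3, whereas vehicle replicate 1 was 76.3 and 103.5 from them. NJT-2 replicates 1 and 3 lay at 19.1 from each other, and NJT-2 replicate 2 at 76.5 and 73.3 from them. Levels relative to the mean of all 6 libraries followed gene length with a Spearman coefficient of -0.388 and -0.401 in vehicle replicates 1 and 2, against 0.347 in vehicle replicate 3 and between 0.184 and 0.284 in the NJT-2 libraries. The 8 adipocyte markers in the table summed to between 81.9 and 105 FPKM (the authors' scale of fragments per length and library total) in vehicle and to 1625, 480, and 1322 FPKM in NJT-2 replicates 1, 2, and 3. All 8 were higher in every NJT-2 library than in any vehicle library, with *Adipoq*, the gene of adiponectin, between 0.38 and 0.50 FPKM in vehicle. The 4 macrophage markers summed to between 9.67 and 12.7 FPKM in vehicle and between 31.4 and 58.7 FPKM with NJT-2. *Cd68* and *Adgre1* were higher in every NJT-2 library than in any vehicle library. *Csf1r* (log2 fold change 0.03) and *Fcgr1* had overlapping groups. The 6 preadipocyte and fibroblast markers summed to between 228 and 1000 FPKM in vehicle and between 445 and 490 FPKM with NJT-2. *Col1a1* was the largest part of each sum. Of these 6 genes, 5 had a log2 fold change below 0 and 1 above, with a median of -0.88. In FPKM, 2 were lower in every NJT-2 library than in any vehicle library, and 1 was higher. *Pi16*, among the lower ones, had 22.33, 19.40, and 12.50 FPKM in vehicle and 1.73, 0.98, and 1.95 FPKM with NJT-2. The part of the adipocyte, macrophage, preadipocyte, and fibroblast markers and of these libraries in the differences below was not tested. In bulk RNA, fewer cells of a type and less RNA per cell cannot be told apart.

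Short stretches of promoter sequence are shown first for 6 members, none of them called. A promoter is a place where the PPAR and RXR direct repeat can be looked for, and sequence outside the windows below was not searched. RefSeq promoter windows of 300 bases on build GRCm38.p6, from 250 bases before to 50 after each start, were at hand for 24 of the 33 members, *Ephx2* not among them. Those shown had a window and a log2 fold change above 0 with an unadjusted p under 0.05 or no overlap between the groups, or, for *Acox2*, reads in NJT-2 libraries only. *Pipox* also had a window, with 4 mismatches at best, and reads in NJT-2 libraries only (9, 4, and 5 counts), and is not shown. The motif AGGTCANAGGTCA was searched on both strands, with 2 mismatches allowed among its 12 defined letters and with no other motif searched. A window of *Acox2* was the only match among the 30 member windows, a share of 3.33%, and 1268 of all 32851 windows matched, a share of 3.86%. The capitals mark the 13 bases most like the motif in 1 window of each gene, the sequence reads 5′ to 3′ along the minus strand that holds each gene, and the position follows the name.
*Acox2* (chr14:8258810-8258838, 2 mismatches): gctgtcccAGGACAGAGGTGAgtcaagag
*Ehhadh* (chr16:21787887-21787915, 4 mismatches): gagcacgaAGTGCAAGGGGCAggaggcgg
*Eci2* (chr13:34994155-34994183, 4 mismatches, motif on the opposite strand): cccgccccTGAACCCTGGCCCcacccacg
*Pex3* (chr10:13553208-13553236, 4 mismatches): gggacgagAGAAGAGAGGACAgcggaacg
*Pex13* (chr11:23665951-23665979, 4 mismatches): acacgcctTGGCCTGACGTCAggcgtggg
*Pex5* (chr6:124414850-124414878, 4 mismatches): ccggggagGGGGCTCAGGTGAcacgagct
The member windows thus held the motif at about the share of all windows. Only the *Acox2* stretch, at bases 260 to 272 of its window and so just after the start, is a match within the limit, and a match is a likeness of letters and not a bound site.

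Across the peroxisome genes, 1 rose with NJT-2. This was *Ephx2*, which encodes soluble epoxide hydrolase. None of the members fell. A gene counted as called where its adjusted p was under 0.05 and its log2 fold change was beyond 1 in either direction, by edgeR's quasi-likelihood test with Benjamini-Hochberg adjustment over the 3705 genes that had a mean of at least 0.5 FPKM, and 28 of the 33 members were among them. Over all tested genes, 0.567% were called higher and 0.135% lower, and the 1 called member was 3.57% of the 28. At an unadjusted p under 0.05, 5 members were higher, where the background is 8.04% of all genes, and 2 were lower, where it is 9.72%. DESeq2 also called 1 member higher and 0 lower, while it called 4.40% of all genes higher and 3.40% lower.

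Without regard to a threshold, 18 of the 28 tested members had a log2 fold change above 0, against 50.8% of all genes, and the median log2 fold change was 0.32 for the members and 0.02 for all genes. The members' median rested on NJT-2 replicates 1 and 3, as it was -0.03 and 0.14 without either one, and it was 0.14 with the replicate number as a block. In FPKM, 4 members were higher in each NJT-2 library than in each vehicle library, where the share over all genes is 14.4%, and 2 were lower in each, where it is 11.5%. Those shares in the members, 14.3% and 7.14%, are near or under the background. The members are given by role below, with medians that carry no test. The median log2 fold change was 0.85 in the 5 tested genes of β-oxidation, 0.75 in the 6 *Pex* genes, and -0.60 in the 3 antioxidant genes.

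**Figure D1:**
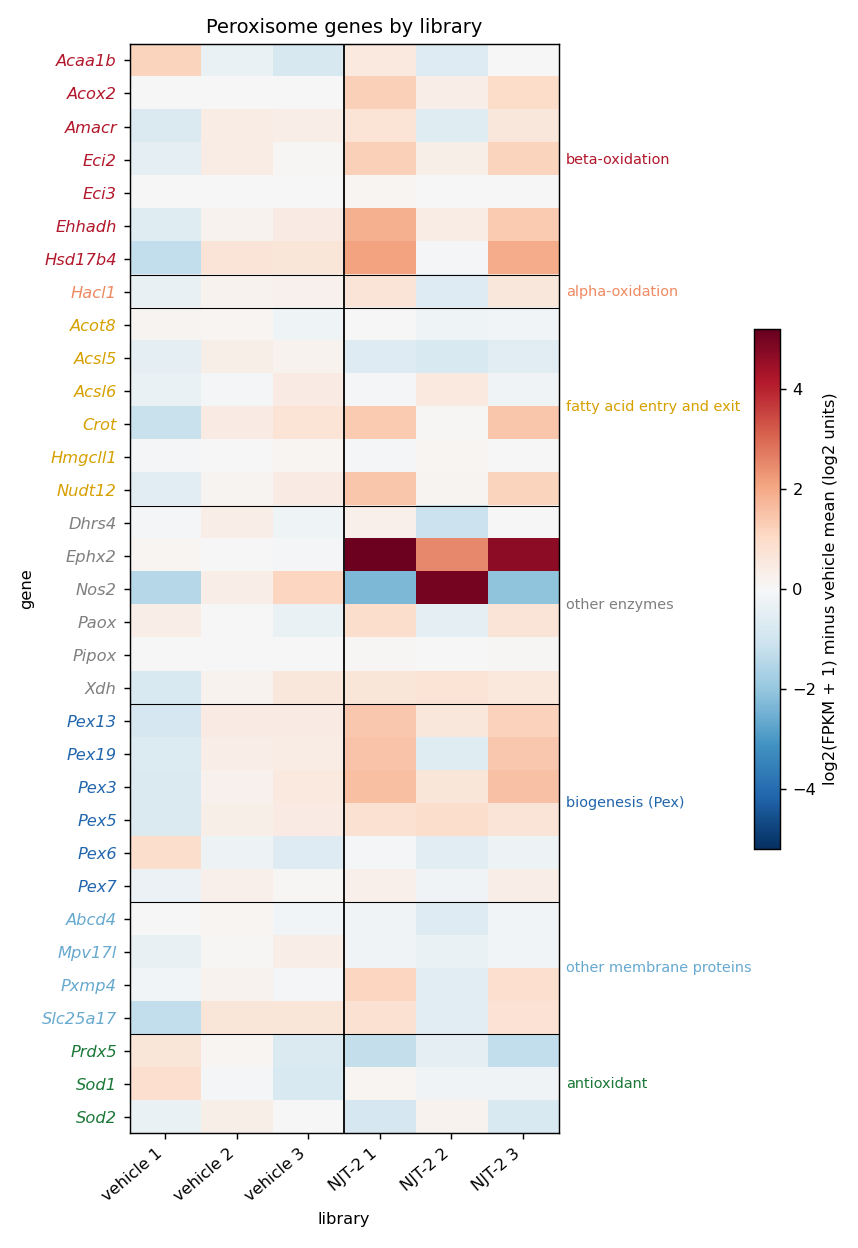
Heat map of the 33 peroxisome genes by role (rows) in the 6 libraries (columns), as log2(FPKM + 1) minus the mean of the 3 vehicle libraries. NJT-2 replicates 1 and 3 show the higher values of most oxidation and *Pex* genes, with NJT-2 replicate 2 nearer to vehicle, and *Nos2* stands out in NJT-2 replicate 2 alone.

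**Figure D2:**
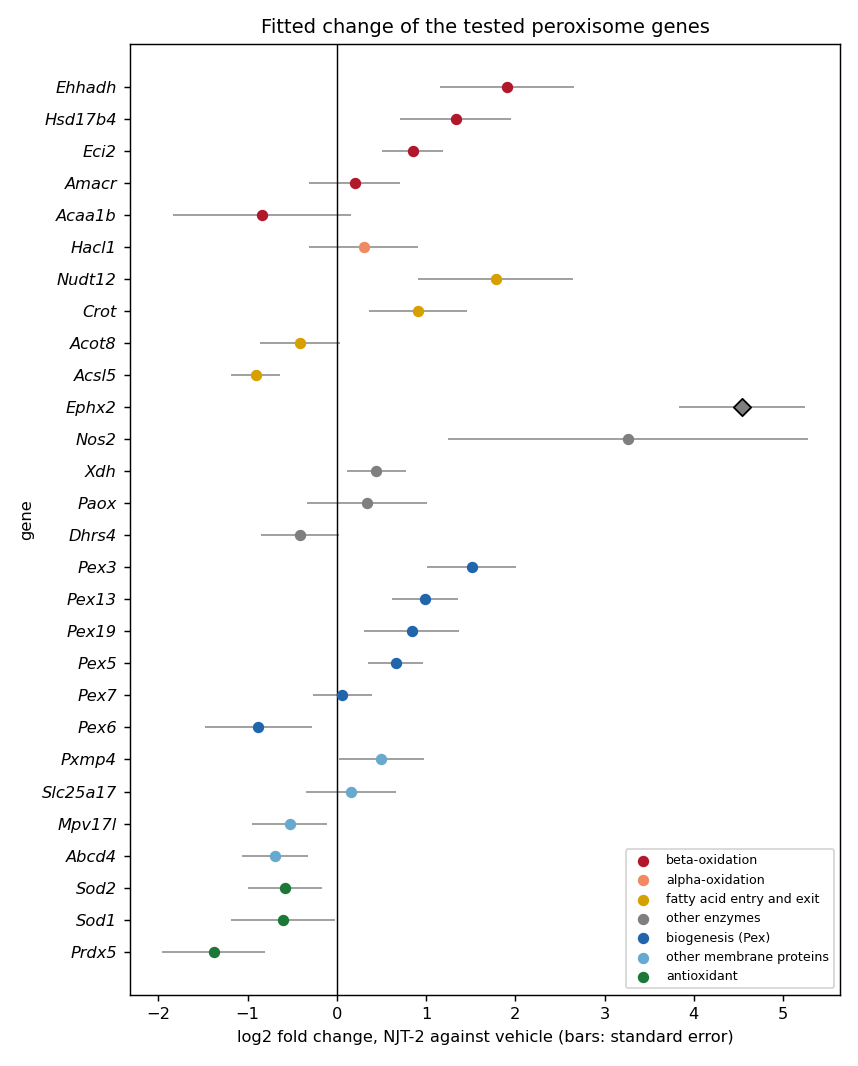
Log2 fold change (NJT-2 over vehicle, horizontal axis) with its standard error for the 28 tested members, grouped by role. The diamond marks an adjusted p under 0.05, reached by *Ephx2* only.

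Among the β-oxidation enzymes, 4 of the 5 tested genes had a log2 fold change above 0, none passed the test, and *Acox2* was under its limit. *Acox2* (ENSMUSG00000021751, chr14:8225511-8259353) encodes the oxidase for branched-chain acyl-CoA and bile acid intermediates. It had 0 counts in each vehicle library and 363, 72, and 240 counts in NJT-2 replicates 1, 2, and 3. Reads were therefore present in all NJT-2 libraries and in no vehicle library, although the level was low, at 0.853 ± 0.563 FPKM (SD, n = 3), and under the limit for the test over all genes. Set against a floor of 3 counts per vehicle library, the observed NJT-2 mean was higher by 75.2-fold, and by 52.6-fold without NJT-2 replicate 1. In the edgeR fit with no filter on low values its adjusted p was 0.0477.

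*Ehhadh* (ENSMUSG00000022853, chr16:21761287-21787807) encodes the L-bifunctional protein, which performs the hydratase and dehydrogenase steps. Its values were 0.18, 1.11, and 1.49 FPKM in vehicle and 5.67, 1.42, and 3.66 FPKM with NJT-2, so NJT-2 replicate 2 lay between vehicle replicates 2 and 3. The log2 fold change was 1.91 ± 0.75 (SE; edgeR unadjusted p = 0.0355, adjusted p = 0.258). *Hsd17b4*, the gene of the D-bifunctional protein for the same steps, had 4.46, 19.97, and 19.40 FPKM in vehicle and 55.49, 11.64, and 49.07 FPKM with NJT-2. Again NJT-2 replicates 1 and 3 were above all vehicle libraries and NJT-2 replicate 2 was not, and the log2 fold change of 1.33 ± 0.62 did not pass the test (edgeR adjusted p = 0.299).

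*Eci2* (ENSMUSG00000021417, chr13:34977748-35027096) encodes an enoyl-CoA isomerase needed for unsaturated fatty acids. It had 5.32, 10.24, and 8.14 FPKM in vehicle and 19.41, 9.83, and 18.21 FPKM with NJT-2, where replicate 2 fell just under the highest vehicle library. The log2 fold change was 0.85 ± 0.34 (edgeR unadjusted p = 0.0374, adjusted p = 0.264). *Amacr*, the racemase that readies branched-chain acyl-CoA for oxidation, and *Acaa1b*, a thiolase of the last step, had log2 fold changes of 0.20 ± 0.51 and -0.84 ± 1.0 with overlapping groups. *Acaa1b* has a near-identical paralog, so the split of its reads is uncertain, and it was at 5.39 FPKM in vehicle replicate 1 but between 0.62 and 1.23 FPKM in the other vehicle libraries. *Eci3*, a paralog of *Eci2* at the neighbouring position on the chromosome, had between 0 and 7 counts in any library and was not tested.

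The remaining oxidation genes had values on both sides of 0. *Hacl1*, the lyase that releases 1 carbon in α-oxidation, had a log2 fold change of 0.30 ± 0.61, and 1540 of its exon bases are shared with *Gm49387* on the same strand, so those reads are uncertain. Among genes that activate, release, or export acyl groups, *Acsl5*, a long-chain acyl-CoA synthetase, went the other way. It had 12.10, 21.26, and 19.36 FPKM in vehicle and 10.42, 9.52, and 11.07 FPKM with NJT-2. All NJT-2 values were lower than all vehicle values, with a small gap between vehicle replicate 1 and NJT-2 replicate 3, and the log2 fold change was -0.91 ± 0.27 (SE; edgeR unadjusted p = 0.0105, adjusted p = 0.182). DESeq2 gave *Acsl5* an adjusted p of 0.0212, at a fold change inside the limit.

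*Crot*, which exports shortened acyl groups as carnitine esters, had 1.62, 7.05, and 8.82 FPKM in vehicle and 14.06, 5.25, and 14.91 FPKM with NJT-2. *Nudt12*, a pyrophosphatase for NADH and NADPH, had 0.07, 0.71, and 1.07 FPKM in vehicle and 3.20, 0.73, and 2.52 FPKM with NJT-2. In both, NJT-2 replicates 1 and 3 exceeded the vehicle libraries and replicate 2 lay among them, and neither log2 fold change passed the test (0.91 ± 0.55 and 1.78 ± 0.87, SE; edgeR adjusted p = 0.375 and 0.305). *Acot8*, the peroxisomal thioesterase, was within 3.28 to 4.61 FPKM in all libraries. *Acsl6* and *Hmgcll1* were under the limit, with 8 to 571 and 0 to 44 counts and no separation of the groups.

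**Figure D3:**
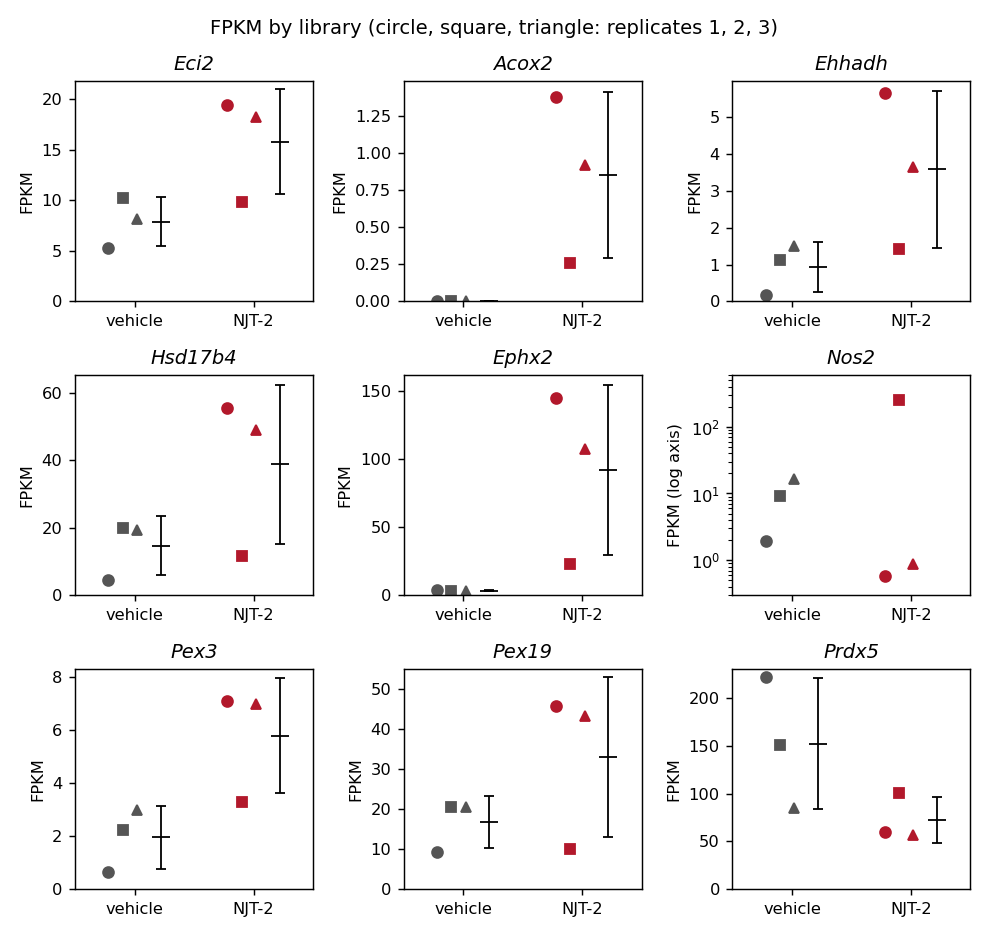
FPKM of 9 peroxisome genes in each of the 3 vehicle and 3 NJT-2 libraries (circle, square, and triangle for replicates 1, 2, and 3), with the mean and SD beside the points except for *Nos2*, which has a log axis. For *Ephx2* and *Pex3* all NJT-2 points lie above all vehicle points, while for *Hsd17b4* and *Pex19* the square of NJT-2 replicate 2 lies among the vehicle points.

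Among the other enzymes, *Ephx2* (ENSMUSG00000022040, chr14:66084374-66112386, minus strand) was the 1 gene that rose. Its product hydrolyses epoxides of fatty acids to diols and is found in both cytosol and peroxisome. It had 3.55, 3.34, and 2.93 FPKM in the vehicle libraries and 144.84, 22.82, and 107.25 FPKM in the NJT-2 libraries. The vehicle values hardly differed, at 3.27 ± 0.315 FPKM (SD, n = 3), whereas the NJT-2 values, at 91.6 ± 62.5 FPKM, were all higher but spread widely. The log2 fold change was 4.54 ± 0.71 (SE; edgeR adjusted p = 0.0432), a 23.3-fold rise, and leaving out 1 library at a time gave between 4.05 and 4.99. With all 6 libraries the call was kept under every alternative. The adjusted p was 1.21e-10 in DESeq2, 0.00179 in edgeR with the replicate block, and at most 0.0432, in edgeR with the library totals that FPKM implies. Among the fits with 1 library left out, the call was kept only without NJT-2 replicate 2 (edgeR adjusted p = 0.014). Without vehicle replicate 1, 2, or 3 the edgeR adjusted p was 0.108, 0.3, and 0.087, and without NJT-2 replicate 1 or 3 it was 0.11 and 0.104.

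*Nos2*, the inducible nitric oxide synthase, had the widest range of any member. It had 1.91, 9.31, and 16.39 FPKM in vehicle and 0.58, 249.64, and 0.88 FPKM with NJT-2. The 1 high library was NJT-2 replicate 2, and the other NJT-2 libraries were below all vehicle libraries. The log2 fold change of 3.26 ± 2.02 (edgeR adjusted p = 0.382) therefore turned to -3.72 without NJT-2 replicate 2 (adjusted p = 0.0941).

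*Xdh*, which encodes xanthine dehydrogenase, had 26.11, 51.74, and 68.77 FPKM in vehicle and 70.37, 74.23, and 67.14 FPKM with NJT-2, with a log2 fold change of 0.44 ± 0.33 (edgeR adjusted p = 0.457). Its NJT-2 libraries were close together, and the highest vehicle library lay within their range. *Dhrs4*, a short-chain reductase of retinoids and other carbonyls, and *Paox*, the polyamine oxidase, had log2 fold changes of -0.41 ± 0.44 and 0.34 ± 0.67 with overlapping groups. *Pipox*, the pipecolic acid oxidase, had 0 counts in each vehicle library and 9, 4, and 5 counts with NJT-2. The observed NJT-2 mean was 2.01-fold over the floor of 3 counts per vehicle library, and 1.52-fold without NJT-2 replicate 1.

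Of the 6 biogenesis genes, 5 had a log2 fold change above 0 and none passed the test. The range was from -0.88 to 1.51, and 3 of them, *Pex3*, *Pex13*, and *Pex5*, were higher in each NJT-2 library than in each vehicle library, as were 14.4% of all genes and 14.3% of all tested members. *Pex3* (ENSMUSG00000019809, chr10:13523842-13553142), which anchors the insertion of peroxisomal membrane proteins, had 0.63, 2.24, and 2.97 FPKM in vehicle and 7.09, 3.29, and 6.97 FPKM with NJT-2. The lowest NJT-2 library, replicate 2, was only just above the highest vehicle library. Its log2 fold change was 1.51 ± 0.50 (SE; edgeR unadjusted p = 0.0173, adjusted p = 0.209).

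*Pex13* (ENSMUSG00000020283, chr11:23646479-23665959), a membrane docking protein for the import receptors, had 3.55, 10.08, and 10.03 FPKM in vehicle and 20.60, 11.50, and 18.01 FPKM with NJT-2 (log2 fold change 0.99 ± 0.37; edgeR unadjusted p = 0.0282, adjusted p = 0.239). *Pex5* (ENSMUSG00000005069, chr6:124396816-124415067), the receptor for most matrix enzymes, had 6.47, 14.40, and 16.01 FPKM in vehicle and 20.94, 22.28, and 19.12 FPKM with NJT-2. It was the 1 biogenesis gene in which NJT-2 replicate 2 was the highest library, and its log2 fold change was 0.66 ± 0.31 (edgeR adjusted p = 0.296). *Pex7*, the receptor for the less common targeting signal, had a log2 fold change of 0.06 ± 0.33.

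*Pex19*, the cytosolic carrier that delivers membrane proteins to *Pex3*, had the highest mean FPKM of the biogenesis genes with NJT-2. It had 9.17, 20.38, and 20.58 FPKM in vehicle and 45.78, 9.94, and 43.14 FPKM with NJT-2. NJT-2 replicates 1 and 3 were thus well above vehicle and NJT-2 replicate 2 was near the lowest vehicle library, so that the log2 fold change of 0.84 ± 0.53 did not pass the test (edgeR adjusted p = 0.388). *Pex6*, an ATPase that helps pull the import receptors back out of the membrane, had a log2 fold change of -0.88 ± 0.60 that rested on vehicle replicate 1, at 30.37 FPKM against 13.08 and 9.58 FPKM in the other vehicle libraries. Without vehicle replicate 1 the *Pex6* value was 0.13.

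Of the 4 other membrane proteins, 2 were above 0 and 2 below. *Abcd4*, an ABC transporter of cobalamin found mainly in lysosomes, had 3.09, 3.26, and 2.65 FPKM in vehicle and 2.52, 1.48, and 2.58 FPKM with NJT-2. The groups did not overlap, but NJT-2 replicate 3 and vehicle replicate 3 were close, and the log2 fold change was -0.69 ± 0.37 (edgeR adjusted p = 0.338). *Slc25a17*, a carrier of CoA, FAD, and NAD, had 6.66, 27.23, and 27.69 FPKM in vehicle and 30.62, 11.69, and 29.79 FPKM with NJT-2 (log2 fold change 0.16 ± 0.50). *Pxmp4* and *Mpv17l*, a pair of small membrane proteins, had log2 fold changes of 0.50 ± 0.48 and -0.53 ± 0.42 with overlapping groups.

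The 3 antioxidant genes among the members, *Prdx5*, *Sod1*, and *Sod2*, all had log2 fold changes below 0, and none passed the test. *Prdx5* (ENSMUSG00000024953, chr19:6906697-6909978), a peroxiredoxin shared by peroxisomes, mitochondria, and cytosol, had the highest mean FPKM of all members. It had 222.24, 150.55, and 84.36 FPKM in vehicle and 59.20, 100.13, and 56.89 FPKM with NJT-2. NJT-2 replicate 2 exceeded vehicle replicate 3, and the vehicle libraries themselves spread widely. The mean was 152 ± 69 FPKM with vehicle and 72.1 ± 24.3 FPKM with NJT-2 (SD, n = 3 each). On the log2 scale the fitted difference was -1.38 ± 0.58 (SE; edgeR unadjusted p = 0.0447, adjusted p = 0.273). It was -0.68 without vehicle replicate 1 and -0.82 with the length trend taken out.

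*Sod1*, the copper and zinc superoxide dismutase of the cytosol, had 65.53, 33.85, and 20.29 FPKM in vehicle and 38.59, 31.17, and 31.35 FPKM with NJT-2. The NJT-2 values lay inside the vehicle range, and the log2 fold change of -0.60 ± 0.58 (edgeR adjusted p = 0.561) turned to 0.31 without vehicle replicate 1. *Sod2*, the manganese enzyme of mitochondria, had 33.80, 53.43, and 43.78 FPKM in vehicle and 23.22, 48.37, and 24.49 FPKM with NJT-2. Its NJT-2 replicates 1 and 3 were below all vehicle libraries and replicate 2 was within them, with a log2 fold change of -0.58 ± 0.41 (edgeR adjusted p = 0.427).

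The roles were then set side by side within each library. The 7 β-oxidation genes summed to 17.1, 37.6, and 34.5 FPKM in vehicle replicates 1, 2, and 3 and to 91.6, 25.9, and 79.6 FPKM in NJT-2 replicates 1, 2, and 3. NJT-2 replicates 1 and 3 were above every vehicle sum and replicate 2 lay among them. The 6 *Pex* genes summed to 51.3, 62.3, and 60.9 FPKM in vehicle and to 111, 58.3, and 103 FPKM with NJT-2, where replicate 2 again lay among the vehicle libraries. Single *Pex* genes differed from this sum. *Pex19* had 9.94 FPKM in NJT-2 replicate 2, against 45.78 and 43.14 FPKM in NJT-2 replicates 1 and 3. *Pex3*, *Pex13*, and *Pex5* were above every vehicle library in NJT-2 replicate 2 as well. The 3 antioxidant genes summed to 322, 238, and 148 FPKM in vehicle and to 121, 180, and 113 FPKM with NJT-2, where replicate 2 lay within the vehicle range and the other NJT-2 libraries below it.

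**Figure D4:**
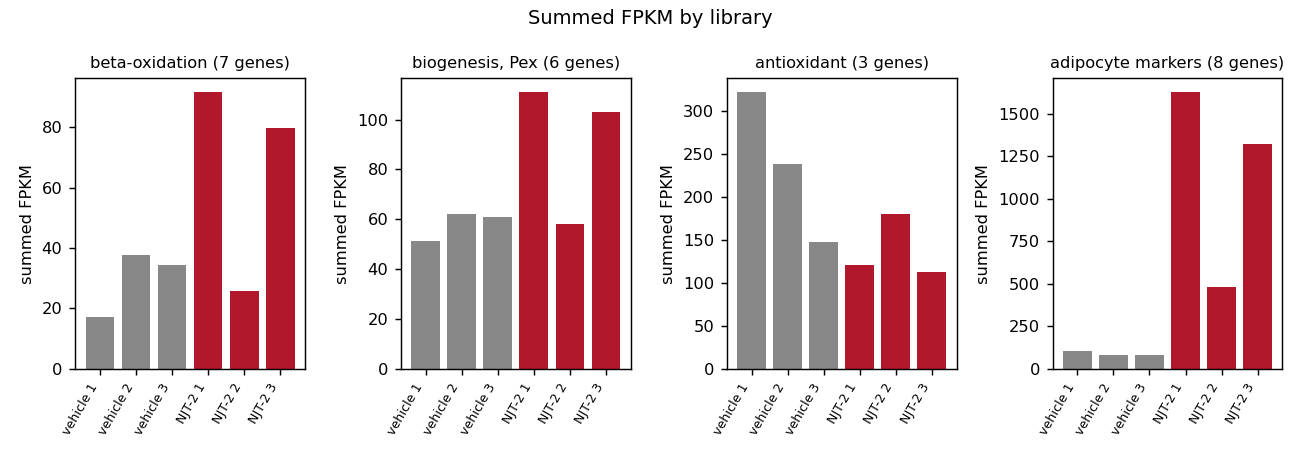
Summed FPKM in each library for the 7 β-oxidation, 6 *Pex*, and 3 antioxidant genes and for the 8 adipocyte markers. For the adipocyte markers NJT-2 replicate 2 (480 FPKM) stands between vehicle and the other NJT-2 libraries, and in the β-oxidation and *Pex* panels its sum stands with vehicle. Single genes can differ from the sum, as *Pex3*, *Pex13*, and *Pex5* do.

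NJT-2 replicate 2 was the lowest NJT-2 library for 23 of the 28 tested members, against 58.1% of all genes. Its level was a median of 0.315 times the mean of NJT-2 replicates 1 and 3 over the 5 tested β-oxidation genes, 0.599 times over the *Pex* genes, and 1.73 times over the antioxidant genes, beside 0.349 times for the adipocyte markers and 0.846 times for all tested genes. NJT-2 replicates 1 and 3 were both above all vehicle libraries for 15 of the 28 members, against 29.2% of all genes. Vehicle replicate 1 was the lowest vehicle library for 19 members, against 66.2% of all genes, and its level was a median of 0.538 times the mean of vehicle replicates 2 and 3 for the members and 0.616 times for all tested genes. For the antioxidant genes that median was 1.89 times.

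Genes of related function outside the annotation were described from lists of named genes. Of 18 listed mitochondrial β-oxidation genes, 5 were among the genes analysed, and all 5 were tested. Of these, 3 had a log2 fold change above 0, and the median of the 5 was 0.68, beside 0.85 for the peroxisomal enzymes. *Cpt1a* (-0.54 ± 0.36) and *Etfb* (-0.74 ± 0.92) were below 0 with overlapping groups. *Eci1*, the mitochondrial counterpart of *Eci2*, had 3.93, 6.39, and 3.85 FPKM in vehicle and 22.18, 6.58, and 20.55 FPKM with NJT-2 (log2 fold change 1.59 ± 0.49; edgeR adjusted p = 0.189). Its groups did not overlap, but NJT-2 replicate 2 was next to vehicle replicate 2. Of 26 listed peroxisomal genes outside the annotation, 4 were tested. Of these, 2 were above 0 and 2 below, and their median of 0.02 was that of all genes. *Dnm1l*, which divides both peroxisomes and mitochondria, had a log2 fold change of 0.68 ± 0.35, and *Fis1*, its membrane adaptor, one of -1.46 ± 0.65. Neither passed the test (edgeR adjusted p = 0.314 and 0.287). *Tysnd1* (-0.39 ± 0.46) and *Trim37* (0.44 ± 0.37) also had overlapping groups.

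Among 11 other antioxidant genes the median log2 fold change was -0.43, with 4 above and 7 below 0 and none called. The list holds 3 peroxiredoxins. *Prdx2*, of the cytosol, had 158.30, 114.62, and 67.74 FPKM in vehicle and 44.37, 38.90, and 45.80 FPKM with NJT-2 (log2 fold change -1.71 ± 0.50; edgeR adjusted p = 0.178). *Prdx3*, of mitochondria, had 13.33, 53.82, and 46.82 FPKM in vehicle and 190.98, 55.73, and 167.00 FPKM with NJT-2 (1.78 ± 0.54; edgeR adjusted p = 0.185). *Prdx4*, of the endoplasmic reticulum, had a log2 fold change of -0.99 ± 0.42 with overlapping groups (edgeR adjusted p = 0.281). The groups did not overlap for *Prdx2* and *Prdx3*, and no difference between these genes was tested. *Hmox1*, heme oxygenase 1, had 47.08, 158.71, and 147.83 FPKM in vehicle and 214.90, 960.63, and 264.58 FPKM with NJT-2 (2.01 ± 0.68; edgeR adjusted p = 0.218). All NJT-2 libraries were above vehicle, and replicate 2, the library with high *Nos2*, was the highest. *Nqo1* went the other way without overlap, at 12.50, 24.07, and 18.22 FPKM in vehicle and 9.57, 11.17, and 9.06 FPKM with NJT-2 (-1.01 ± 0.31; edgeR adjusted p = 0.19). *Gpx3* and *Gpx8* had log2 fold changes of -0.99 ± 0.57 and -0.82 ± 0.30 with overlapping groups (edgeR adjusted p = 0.355 and 0.236).

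For the receptors named in the background, *Pparg* had 1.06, 5.68, and 6.41 FPKM in vehicle and 37.26, 13.01, and 33.71 FPKM with NJT-2 (log2 fold change 2.63 ± 0.61; edgeR adjusted p = 0.119). *Ppara* was under the limit, with 0, 12, and 23 counts in vehicle and 416, 85, and 255 counts with NJT-2. *Ppard* had 4.09, 4.76, and 5.59 FPKM in vehicle and 5.41, 16.25, and 6.02 FPKM with NJT-2 (0.80 ± 0.50; edgeR adjusted p = 0.388). *Rxra*, the common partner, had 13.68, 12.14, and 13.45 FPKM in vehicle and 21.28, 5.95, and 19.66 FPKM with NJT-2. Its log2 fold change was 0.01 ± 0.49, with NJT-2 replicates 1 and 3 above all vehicle libraries and replicate 2 below them. *Rxrg*, under the limit like *Ppara*, had 0 counts in each vehicle library and 196, 27, and 130 counts with NJT-2.

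The exons of 14 of the 33 members share between 2 and 409 bases with a gene on the opposite strand, among them *Prdx5* (409 bases with *Trmt112*), *Acsl5* (404 with *Zdhhc6*), *Pex3* (249 with *Adat2*), and *Eci2* (189 with *Gm16984*). The sources used here do not say whether the counting used strand, so reads from these stretches cannot be assigned. *Ephx2*, *Acox2*, *Ehhadh*, and *Pex5* have no such overlap.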

How the data were processed

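Poly(A) RNA was sequenced from 3 vehicle and 3 NJT-2 libraries. The authors aligned reads to GRCm38 with HISAT2 (2.2.1 in the submitters' processing notes, which also name cutadapt 1.9, StringTie 2.1.6, DESeq2, and edgeR). The counting tool, annotation release, and use of strand are not given in the sources used here. The authors deposited raw read counts per gene, not normalized, and FPKM values rounded to hundredths. The 4864 complete genes analysed (1 incomplete line was left out) hold between 27.7% and 32.5% of the library totals of 58108761 to 89138385 that the FPKM values imply.

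Counts were tested in R 4.3.3 with edgeR 4.0.16 (quasi-likelihood test, TMM factors, mean FPKM of at least 0.5, adjustment over 3705 genes). DESeq2 1.42.0, limma 3.58.1 on log2(FPKM + 1) and log2(FPKM + 0.1), other scalings and filters, a replicate block, a length correction, and leaving out each library were alternatives. The fitting steps were tested on simulated data. Comparing the groups on log2 CPM in place of FPKM was added after seeing the data. The fold against vehicle libraries with no reads used a floor of 3 counts per vehicle library. The floor covers counting error in the vehicle libraries only, and the NJT-2 counts were taken as observed. Spread between replicates, and not depth, set the precision for most members. With 3 libraries per group, an exact permutation p cannot go below 0.1.

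Members, roles, and lists were chosen with earlier results of these data known. Values are printed for members at an unadjusted p under 0.05 or without overlap and for the 1 to 3 most abundant others of each role, and the rest are summarised. As exceptions, *Acot8* is given by its range and *Hacl1* by its log2 fold change only. The values of 4 annotated genes are not reported here, and they are left out of every count of members. Promoter sequences are from RefSeq (GRCm38.p6), matched by symbol, and gene overlaps are from GENCODE M21, which holds all 4864 identifiers.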

Additional observations from a re-analysis of the deposited data

How the results depend on the processing

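Of the 28 tested members, 17 kept the sign of their log2 fold change under all alternatives. The counts over all genes moved most. The number called higher, 21, became 163 with DESeq2, 43 with the replicate block, and 32 with the length trend taken out, and lay between 0 and 56 when 1 library was left out. The number called lower, 5, became 126 with DESeq2, 9 with upper-quartile factors, with no filter, and with at least 10 counts in every library, 8 with the length trend taken out and with the filter set to a mean FPKM of 1, 10 in both limma fits, 14 with the block, and 0 to 19 when 1 library was left out. The number of members called higher, 1, was 2 with no filter, where *Acox2* was tested and called as well, and 0 to 1 when 1 library was left out. Members at an unadjusted p under 0.05 and higher, 5, numbered 8 with DESeq2, 3 with upper-quartile factors and with the implied library totals, 2 with the block, and 1 to 9 when 1 library was left out. Those lower numbered 1 with the implied totals, 0 in both limma fits and with the block, and 0 to 4 when 1 library was left out. The shares over all genes at an unadjusted p under 0.05 were taken for the main fit only. The counts of members under the other settings therefore have no background beside them and are not a result about the members. Members without overlap numbered 6 higher and 3 lower on log2 CPM, beside 15.1% and 14% of all genes. When 1 library was left out they numbered 4 to 15 higher, beside 15.1% to 29.2% of all genes, and 2 to 5 lower, beside 12% to 21.5%. The members' median log2 fold change, 0.32, lay between -0.03 and 0.51 when 1 library was left out. The median log2 fold change of the other enzymes, 0.44, was 0.67 with the implied totals, 0.28 with the block and with the length trend taken out, and 0.35 to 0.95 when 1 library was left out. The causes were not tested.

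The sign turned for *Acaa1b* (0.03) and *Nos2* (-0.30) in limma on log2(FPKM + 0.1), for *Nos2* (-1.59) with the block, and for *Acot8* (0.08), *Pex7* (-0.49), and *Dhrs4* (0.07) with the length trend taken out. Leaving out 1 library spanned 0 for *Pex6* (-1.27 to 0.13), *Acaa1b* (-1.35 to 1.0), *Pex7* (-0.06 to 0.23), *Nos2* (-3.72 to 3.90), *Hacl1* (-0.05 to 0.74), *Amacr* (-0.09 to 0.55), *Slc25a17* (-0.23 to 0.47), *Sod1* (-1.0 to 0.31), and *Paox* (-0.06 to 0.95). Deviations from the group mean correlated at 0.179, 0.032, and -0.207 between same-numbered libraries, and at between -0.209 and 0.223 between different-numbered ones. With 3 libraries per group, these values cannot decide whether the replicate numbers pair the libraries.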
